A study of Mus musculus with 2 samples.

Results

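The receptor chains, kinases and transcription factors of interleukin-7 and common gamma chain signalling were examined in pancreatic lymph nodes of NOD mice, which become diabetic by autoimmune loss of their beta cells. The members were 10 genes, Il7r, Il2rg, Il2rb, Il2ra, Il4ra, Il21r, Jak1, Jak3, Stat5a and Stat5b. They were taken by gene name from the array annotation, with every probe kept whatever its brightness, which gave 21 of 41174 gene probes. Each of 2 two-colour Agilent whole mouse genome arrays held RNA of 1 hyperglycemic mouse in the Cy5 channel, and both held the same pool of 2 euglycemic mice in the Cy3 channel. All animals were 16-week-old female NOD mice bred at Stanford, and the labels define hyperglycemia as blood glucose over 500 mg/dl and euglycemia as under 200 mg/dl. No treatment or engineered allele is named in the labels. The pool counted as 1 control sample, so the spread among euglycemic mice was not measured, and group and dye cannot be told apart because Cy5 always held the hyperglycemic mouse.

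Interleukin-7 binds a receptor made of its own alpha chain, Il7r, and the common gamma chain, Il2rg, which also serves the receptors for interleukins 2, 4, 9, 15 and 21. The gamma chain recruits the kinase Jak3 and the partner chains recruit Jak1, and the activated kinases phosphorylate Stat5a and Stat5b, which enter the nucleus and switch on survival and growth genes. In lymph nodes this signal maintains resting T cells, and stromal cells of the node are a source of the interleukin-7 itself.

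The hyperglycemic channel was dim for these genes. Of the 21 probes, 7 were well above background, as marked by the scanning software, in both channels on both arrays. Another 4 were so for the pool on both arrays but for the mice on at most 1, 8 for the pool on 1 array, and 2 in neither channel on either array. Over all gene spots, 21.7% and 63.0% were well above background in Cy3 on arrays 1 and 2, but 14.5% and 16.4% in Cy5, where the median spot signal was 37.7 and 38.2 over a local background of 35 on each array. Array 1 also had uneven Cy3 background, above 100 units at 16.4% of its gene spots against 0.00461% on array 2. No spot was saturated, and precision is limited by there being 2 arrays.

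**Figure D1:**
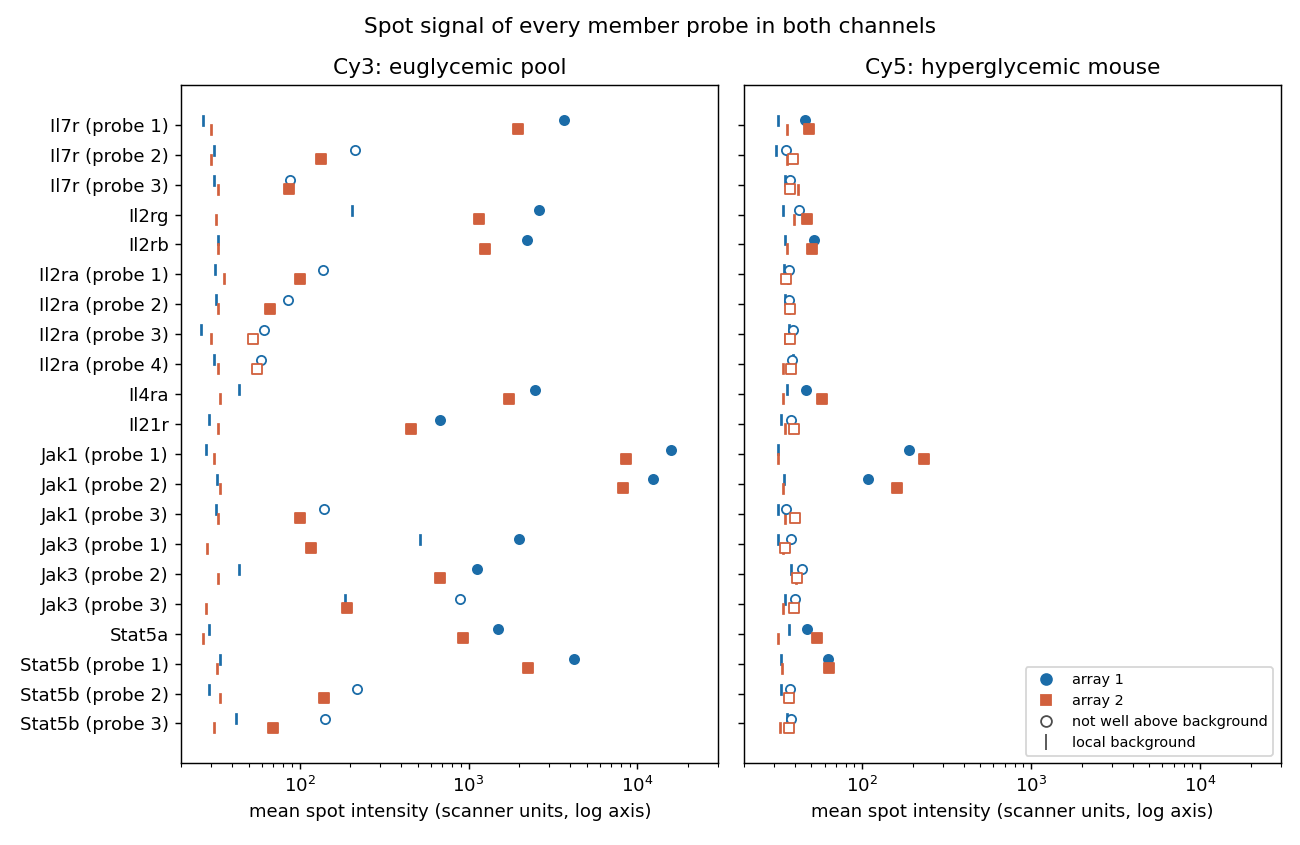
Mean spot intensity in scanner units (log axis) of all 21 probes of the 10 genes, in Cy3 for the euglycemic pool and in Cy5 for the hyperglycemic mice, with array 1 as circles and array 2 as squares. Open symbols mark spots not well above background and vertical ticks the local background; in Cy5 no probe other than Jak1 probes 1 and 2 exceeds 63.4 units.

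Ratios of hyperglycemic mouse to pool were read in 2 ways. The deposited ratios are the authors' own log2 values for 5072 gene probes, made from background-subtracted and dye-normalized signals. The scanner-signal fit starts from spot signal and local background, adds 50 units before the logarithm, and covers the 8815 probes for which either channel was well above background on each array. The added units understate the fold of dim probes. In both, limma tested the mean log2 ratio of the 2 mice against 0, and a probe was called at an adjusted p under 0.05.

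In the deposited ratios, 5 of 7 member probes were called lower in the hyperglycemic mice and none higher, where 18.4% of all 5072 probes were called lower, 25.1% higher and 43.5% either way. The 5 were probes of Il7r, Il4ra, Il2rb, Stat5b and Jak1, and each was below the pool in both mice. The median log2 ratio of the 7 was -0.57, against 0.06 over all probes. In the scanner-signal fit none of 11 member probes was called, although 5 had an unadjusted p under the same threshold and 9 had a mean below 0. Among the 5 was Jak1 probe 1, which stood above 0 at 0.49. Over all 8815 probes, 1713 had such a p and 5163 a mean below 0. The median of the 11 was -0.21, against -0.03 over all 8815 probes, of which 5.23% were called, 4.74% higher and 0.488% lower. On at least 1 array, 4 of the 11 were tested through the pool channel alone, and each had a mean below 0. Passing that way favours low ratios, so their sign is not support for a lower level. With both channels required, 7 member probes had a median of -0.25 and none was called. Of these 7, 2 had such a p, against 1159 of all 5072 probes.

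**Figure D2:**
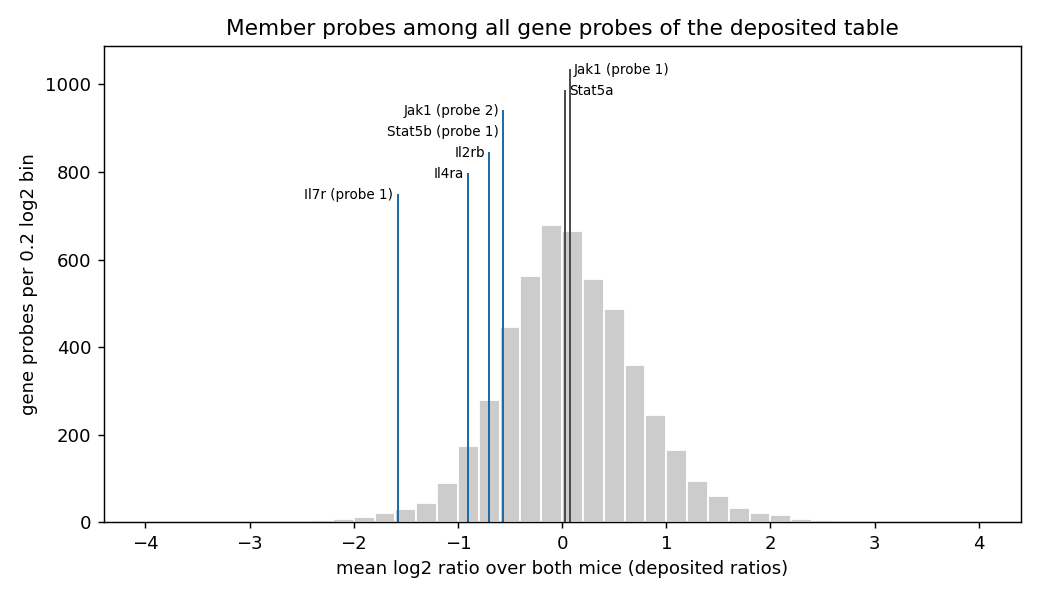
Histogram of the mean deposited log2 ratio over both mice for all 5072 gene probes, with the 7 member probes marked by vertical lines (blue where called lower). Il7r lies at -1.58, at place 51 from the lowest, while Stat5a and Jak1 probe 1 lie near the middle.

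Il7r, the alpha chain that binds interleukin-7, had the lowest deposited ratio of the 7 member probes. Its probe 1 (A_51_P196695, mm8 chr15:9450946-9451005) gave a pool signal of 3668 and 1972 units on arrays 1 and 2, over backgrounds of 27 and 30. The hyperglycemic mice gave 46.1 and 48.7 units over 32 and 36. After the authors' background subtraction and dye normalization these became 1488 and 2216 for the pool and 528 and 699 for the mice. In these processed signals both mice were below the pool. The deposited log2 ratios were -1.50 and -1.66, a mean of -1.58 ± 0.12 (SD, n = 2), or 2.99-fold lower (adjusted p = 0.000883, limma), which was place 51 from the lowest among 5072 probes. In the scanner-signal fit the mice stood at -0.26 and -0.75, a mean of -0.51 ± 0.34, and the probe was not called (adjusted p = 0.147).

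The other Il7r probes could not carry that comparison. Probe 2 (A_52_P555957) gave 212 and 134 units for the pool and 35.5 and 38.9 for the mice, and probe 3 (A_52_P32750) gave 87.2 and 86.6 for the pool and 37.3 for each mouse. Neither was well above background in Cy5 on either array, and both were so in Cy3 on array 2 alone. No fold is given for either. The Il7r difference therefore rests on a single probe. In whole tissue, fewer cells of a type and less RNA per cell cannot be told apart, which holds for every ratio given here.

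Il2rg, the common gamma chain, was seen by 1 probe (A_51_P456952, chrX:97468402-97468915). It gave 2630 and 1160 units for the pool, over backgrounds of 204 and 32, and 42.3 and 47.0 for the mice, over 34 and 39.5. The Cy5 spot was well above background on array 2 alone, and the gene has no value in the deposited table. The scanner-signal ratios were -0.18 and -0.51, a mean of -0.35 ± 0.24 (SD, n = 2) that was not called (adjusted p = 0.211, limma). The processed signals of the scanning software gave log2 ratios of -1.87 and -1.19. Both mice were on the lower side in both readings, but the size differed widely between them. The readings share the same spots, and on array 1 the probe was tested through its pool channel alone, so their common sign is not independent support.

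Il2rb, the chain shared by the interleukin-2 and interleukin-15 receptors, gave 2227 and 1248 units for the pool and 52.0 and 50.6 for the mice (A_51_P286496, chr15:78307934-78307993). Its deposited log2 ratios were -0.45 and -0.95, so the second mouse lay further below the pool than the first. The mean of -0.70 ± 0.36 (SD, n = 2) was 1.63-fold lower (adjusted p = 0.0180, limma). The scanner-signal mean was -0.21 ± 0.21 and was not called (adjusted p = 0.393).

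Il4ra, the chain that binds interleukins 4 and 13, gave 2460 and 1745 units for the pool and 46.9 and 58.1 for the mice (A_51_P464478, chr7:125368771-125368830). Both mice were close to each other in the deposited ratios, at -1.01 and -0.80. The mean was -0.91 ± 0.15 (SD, n = 2), or 1.87-fold lower (adjusted p = 0.00440, limma). Read from scanner signals it was -0.25 ± 0.14, with an adjusted p of 0.273.

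Il21r, the receptor chain for interleukin-21, lies near Il4ra on the same chromosome (A_51_P362877, chr7:125423785-125423844) and was measured in the pool alone. The pool gave 682 and 459 units, and the mice 38.2 and 39.4 over backgrounds of 33 and 35. The mice were not well above background on either array, so no fold is given. The scanner-signal ratios were 0.00 and -0.16 (mean -0.08, adjusted p = 0.708, limma).

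Il2ra, the high-affinity chain of the interleukin-2 receptor and a marker of activated and regulatory T cells, was not measured in the mice by any of its 4 probes. Their Cy5 signals ran from 35.3 to 38.8 units over backgrounds of 34 to 39. The pool was also dim, at 138.5 and 100.7 units on the brightest probe (A_51_P118945) and 61.7 and 52.9, and 59.0 and 56.1, on the 2 dimmest. Just 2 of the 4 probes were well above background in Cy3, on array 2 alone. No ratio is therefore given for Il2ra.

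The bases upstream of the start of 3 receptor genes are shown because short motifs of factors in this pathway were found there, with STAT factors acting below the receptors and Runx, ETS and forkhead factors known as regulators of Il7r or of lymphocyte genes. The sequences are from RefSeq (GRCm38.p6), each 250 bases long and ending 1 base before the annotated start, and they are in another build than the probe positions above. Of the 10 genes, 9 had an entry. Capitals mark the matches, 5′ to 3′ on the strand of the gene.
Il7r, chr15:9529877-9530126, minus strand: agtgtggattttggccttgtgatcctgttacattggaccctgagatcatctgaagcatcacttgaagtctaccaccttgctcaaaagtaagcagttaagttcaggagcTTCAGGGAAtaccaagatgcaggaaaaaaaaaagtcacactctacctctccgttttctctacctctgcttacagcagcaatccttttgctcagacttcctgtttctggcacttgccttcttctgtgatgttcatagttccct
Il2rg, chrX:101268256-101268505, minus strand: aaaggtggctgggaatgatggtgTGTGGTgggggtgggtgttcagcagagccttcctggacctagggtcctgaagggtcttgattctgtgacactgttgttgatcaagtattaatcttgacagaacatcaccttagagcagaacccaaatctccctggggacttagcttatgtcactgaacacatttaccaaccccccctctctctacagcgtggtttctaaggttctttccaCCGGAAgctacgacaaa
Il21r, chr7:125603179-125603428, plus strand: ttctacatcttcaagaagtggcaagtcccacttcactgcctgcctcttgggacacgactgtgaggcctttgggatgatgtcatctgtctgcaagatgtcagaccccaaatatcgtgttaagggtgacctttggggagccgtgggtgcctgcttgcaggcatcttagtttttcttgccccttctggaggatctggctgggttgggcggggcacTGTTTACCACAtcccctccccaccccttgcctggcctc

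The Il7r stretch holds a STAT-type spaced palindrome, TTCNNNGAA, from 142 to 134 bases before the start. This motif was present in 7.02% of 32851 mouse promoter windows of the same length. The Il2rg stretch holds the Runx motif TGTGGT from 227 to 222 bases and the ETS motif CCGGAA from 17 to 12 bases before the start, found in 14.0% and 12.0% of windows. In Il21r the capitals join a forkhead motif, GTAAACA as its reverse complement, with a Runx motif on the same strand sense, overlapping by 2 bases, and the forkhead letters occur in 3.17% of windows. One of the 2 Stat5b entries also held the ETS motif, and no other member entry held any of the 4 motifs. Both strands were searched. These matches describe letters in a short window and nothing in the arrays measured binding there.

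Jak1, the kinase on the partner chains, was measured in both channels on both arrays by 2 of its 3 probes, and these disagreed. Probe 1 (A_52_P106463, chr4:100650421-100650480) gave 15711 and 8579 units for the pool and 189 and 233 for the mice. Probe 2 (A_51_P256642, chr4:100651121-100651180) gave 12438 and 8175 for the pool and 109 and 161 for the mice. All the spots were far above their backgrounds of 28 to 34.5 units. In the deposited ratios probe 1 was at 0.08 and 0.06 and was not called (adjusted p = 0.729, limma). Probe 2 was at -0.61 and -0.51, a mean of -0.56 ± 0.07 (SD, n = 2), 1.48-fold lower (adjusted p = 0.0227).

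The gap between these Jak1 probes was seen on both arrays and in both readings. Probe 1 exceeded probe 2 by 0.70 and 0.57 log2 units in the deposited ratios and by 0.91 and 0.59 in the scanner-signal fit. From scanner signals probe 1 stood above 0, at 0.64 and 0.35 (mean 0.49 ± 0.21, adjusted p = 0.0916), and probe 2 below 0, at -0.27 and -0.24 (mean -0.25 ± 0.02, adjusted p = 0.229). Both carry the same transcript in the array annotation and lie within the same stretch of chromosome 4, so no single direction can be given for Jak1. With median centring in place of the loess probe 1 turned to -1.65, below 0 like probe 2. Probe 3 (A_52_P577180, chr4:100654397-100654456), whose position runs on the opposite strand to the other 2, was not well above background in Cy5 (35.4 and 39.9 units) and was so in Cy3 on array 2 alone.

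Jak3, the kinase bound to the common gamma chain, was not well above background in the mice on any of 3 probes. Probe 2 (A_51_P288406, chr8:74619398-74619457) gave 1124 and 680 units for the pool and 44.2 and 41.5 for the mice. Its scanner-signal ratios were -0.03 and -0.39 (mean -0.21 ± 0.26, adjusted p = 0.425, limma). Probes 1 and 3 differed strongly between the arrays in the pool channel itself. Probe 1 (A_52_P512847) gave 1986 units over a background of 518 on array 1 and 117 over 28.5 on array 2, and probe 3 (A_51_P355360) 896 over 186 and 192 over 28. The same pool was on both arrays, and these spots lay where the Cy3 background of array 1 was raised. No fold is given for any Jak3 probe.

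Stat5a and Stat5b, the transcription factors that carry the signal to the nucleus, are neighbouring genes with closely related proteins, and their probes gave different ratios. Stat5a (A_51_P152765, chr11:100700920-100700979) gave 1499 and 924 units for the pool and 47.2 and 54.1 for the mice. Stat5b probe 1 (A_52_P53698, chr11:100596875-100596934) gave 4233 and 2263 for the pool and 63.0 and 63.4 for the mice. The mice lay close to the pool for Stat5a, with deposited log2 ratios of -0.03 and 0.07 (mean 0.02 ± 0.07, SD, n = 2, 95% interval -0.34 to 0.38, adjusted p = 0.917, limma). They lay below it for Stat5b, at -0.43 and -0.72 (mean -0.57 ± 0.20, 95% interval -0.95 to -0.19, 1.48-fold lower, adjusted p = 0.0262). The intervals overlap, and the difference between the genes was not tested.

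From scanner signals, Stat5a stood at 0.01 ± 0.06 (adjusted p = 0.976) and Stat5b at -0.29 ± 0.18 (adjusted p = 0.241). Stat5b probes 2 and 3 were not well above background in Cy5, with 37.7 and 37.1 units and 38.2 and 36.8 units. Ordered by deposited mean ratio the measured probes ran Il7r, Il4ra, Il2rb, Stat5b, Jak1 probe 2, Stat5a and Jak1 probe 1, and the 95% intervals of neighbours in that order overlapped throughout.

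**Figure D3:**
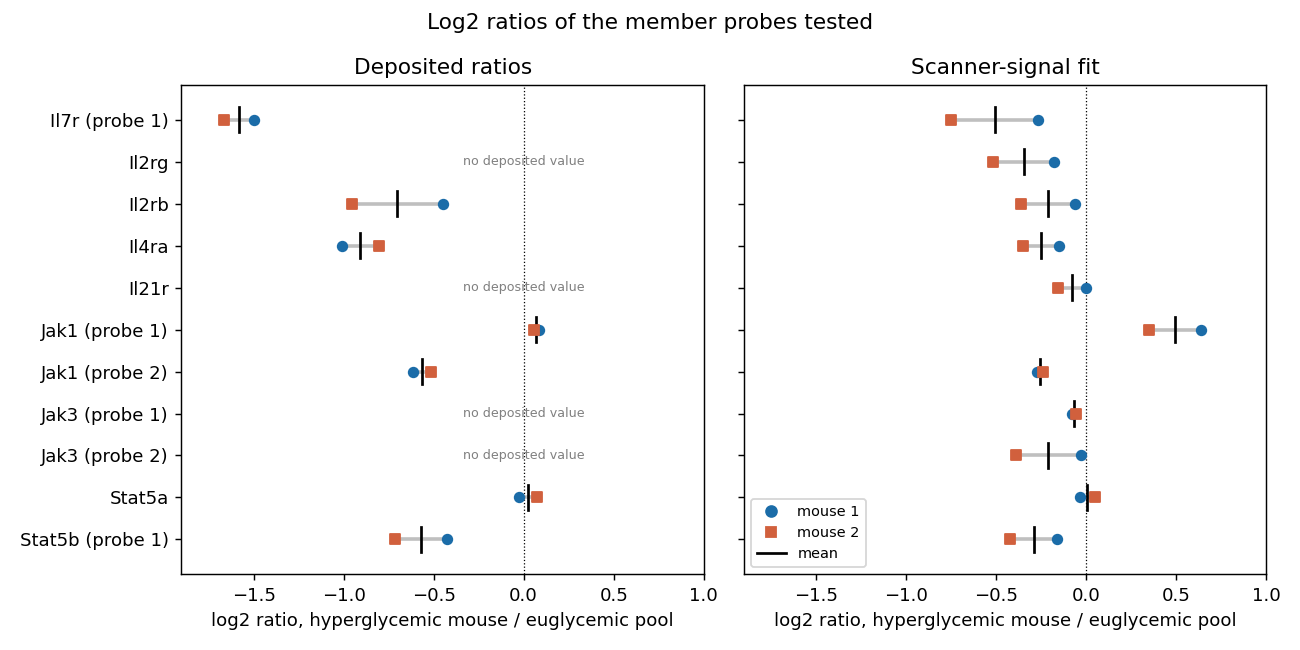
Log2 ratios of hyperglycemic mouse to euglycemic pool for the 11 member probes tested, by mouse (circle, mouse 1; square, mouse 2) with their mean as a black bar, in the deposited ratios (left) and the scanner-signal fit (right). Il7r is lowest in both, and Jak1 probe 1 lies above 0 while Jak1 probe 2 lies below it in both, though not with median centring.

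None of the 8 cytokines that use this pathway could be tested, in the pool or in the mice. Il2, Il4, Il7, Il9, Il13, Il15, Il21 and Tslp had no probe well above background in either channel on both arrays. The brightest Il7 probe gave 157 and 106 units for the pool and 35.7 and 38.5 for the mice. The brightest Il15 probe gave 202 and 102 against 39.6 and 37.1. Il4 gave 137 and 76.6 against 35.8 and 37.1, Il13 70.9 and 66.9 against 39.4 and 35.5, and Il21 71.4 and 59.1 against 38.9 and 35.3. Il2 stayed at or below 62.2 and 56.8 units for the pool and Tslp at 58.4 and 52.3. Il9, a T cell and mast cell cytokine, was the one ligand with a Cy5 spot well above background, in the second mouse alone, at 52.4 units against 35.1 in the first.

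The pathway around the members was followed in 57 listed genes, each by its brightest probe. In the deposited ratios 4 of 28 measured genes were called higher and 11 lower, where 24.4% and 18.6% of all 4060 genes were, or 43% either way. The scanner-signal fit called 1 of 34 higher, Klf2, and 1 lower, where it called 4.6% and 0.496% of 6654 genes, or 5.09% either way. The median deposited ratio of the 28 genes was -0.28, against 0.05 over all genes. An unadjusted p under the threshold was found for 13 of the 34 genes in the scanner-signal fit, against 1352 of all 6654. In the deposited ratios it was found for 18 of the 28, against 2117 of all 4060.

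Among the other receptor chains, Il9r, Il15ra and Il13ra1 were too dim to test. Crlf2, which pairs with Il7r to bind Tslp, was called higher in the deposited ratios, at 0.54 and 0.98 (mean 0.76 ± 0.31, SD, n = 2, adjusted p = 0.0116, limma). It was not called from scanner signals (0.73, adjusted p = 0.0726), and it turned to -0.99 when arrays were centred on their median in place of the loess.

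Among the other kinases and STAT factors, Jak2, a kinase of cytokine receptors, was called higher in the deposited ratios (0.70 ± 0.16, adjusted p = 0.0113, limma) but not from scanner signals (0.28, adjusted p = 0.209), and turned to -0.26 with median centring. Stat3 had a deposited mean of 0.05 and was not called.

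Of 8 measured genes listed as inhibitors of the pathway, 4 were called lower and 1 higher in the deposited ratios. Over all 4060 genes, 18.6% were called lower and 24.4% higher. Ptpn6, a phosphatase of blood cells, stood at -1.47 and -1.66 (mean -1.56 ± 0.14, 2.96-fold lower, adjusted p = 0.000883, limma). Ptprc, the CD45 phosphatase found on all white blood cells, stood at -1.18 and -1.06 (mean -1.12). Socs1, which STAT factors induce and which blocks the kinases in turn, had a mean of -0.60. Ptpn11, a broadly expressed phosphatase placed on this list, was called higher at 0.57, and turned to -1.08 with median centring. Whether it inhibits this pathway in these nodes was not tested. None of 10 was called in the scanner-signal fit, with 4 at an unadjusted p under the threshold. Cish, a direct STAT5 target that damps the same receptors, went opposite ways in the mice (-0.69 and 0.13) and was not called.

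Genes known as survival and growth targets of the pathway included 4 called lower and none higher among 7 in the deposited ratios. Of all 4060 genes, 18.6% were called lower and 24.4% higher. Ccnd2, a cyclin of early cell cycle, stood at -1.54 and -1.40 (mean -1.47 ± 0.10, 2.77-fold lower, adjusted p = 0.000973, limma). Its 2 other probes were also below the pool in both mice. Myc, a growth regulator, had a mean of -0.77, Mcl1, a survival protein, -0.62, and Bcl6, a repressor of germinal centre cells, -0.47. Another Mcl1 probe, also well above background in both channels, went opposite ways in the mice, at -0.25 and 0.19 in the processed signals. Bcl2, the survival protein most closely tied to interleukin-7, stood at -0.04 and 0.03, a mean of 0.00 ± 0.05 (adjusted p = 0.993). None of 8 was called in the scanner-signal fit, with 1 at an unadjusted p under the threshold.

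Transcription factors that act on Il7r were measured for 5 of 8 listed genes. In the deposited ratios Ets1 (-1.05 and -1.13, mean -1.09) and Lef1 (-0.96 and -0.81, mean -0.88) were called lower, both factors of T cell development. Foxo1, which switches on Il7r in resting T cells, stood at -0.28 and -0.66 and was not called (mean -0.47 ± 0.27, adjusted p = 0.0566, limma). Another Foxo1 probe, also well above background in both channels, stood at 0.14 and -0.14 in the processed signals. Klf2, a Foxo1 target that keeps T cells circulating and is also made by endothelium, was called higher, at 0.84 and 1.11 (mean 0.97 ± 0.19, adjusted p = 0.00362). It was called higher in the scanner-signal fit too with a mean of 1.54 ± 0.07 (adjusted p = 0.00459), but lower at -0.77 with median centring. None of the 4 measured genes of the phosphoinositide kinase and adaptor branch was called in either fit. In each fit 1 of the 4 had an unadjusted p under the threshold.

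**Figure D4:**
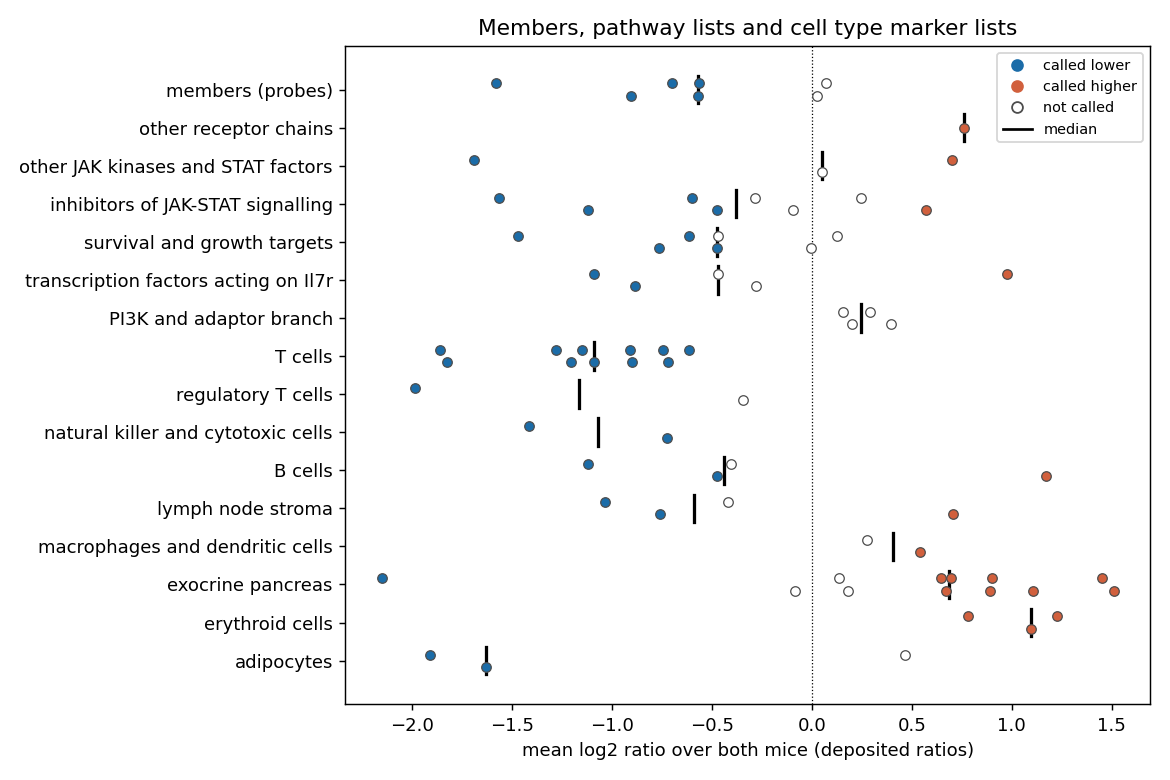
Mean deposited log2 ratio over both mice for the 7 member probes, the genes of each pathway list and those of each cell type marker list, with the median of each as a black bar (blue, called lower; orange, called higher; white, not called). All 11 measured T cell markers lie below 0, from -1.86 to -0.61, beside the members' range of -1.58 to 0.07.

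T cell markers were lower too, with a median further below 0 than that of the members. In the deposited ratios 11 of 11 measured T cell genes were called lower, against 18.6% of all 4060 genes. The T cell genes had a median of -1.09 and a range of -1.86 to -0.61. Their summed processed level was 39136 and 61082 in the pool and 18906 and 29851 in the mice. Cd3g, a chain of the T cell receptor complex, stood at -1.76 and -1.97, Cd8a, the co-receptor of cytotoxic T cells, at -1.67 and -1.98, and the T cell kinase Lck at -1.55 and -0.75. Cd3e, Cd4 and Cd28 were not well above background in the mice on any probe. By the scanner-signal fit Cd3d alone of 14 T cell genes was called lower, 1 of 14, and the median of the 14 was -0.35. Over all 6654 genes, 0.496% were called lower there. In the deposited ratios Il7r lay below the T cell median by 0.40 and 0.75 log2 units in the mice, with 2 of the 11 T cell genes lower still. Il4ra lay within 0.11 of that median and Stat5a about 1 unit above it (1.07 and 0.99). By mean ratio, both Jak1 probes, Stat5a and Stat5b lay above all 11 T cell genes, and Il2rb above 10 of them. The part of T cell content in the members' ratios was not tested.

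Markers of other cells also differed, where 18.6% of all 4060 genes were called lower and 24.4% higher in the deposited ratios. Regulatory T cell genes were called lower for 1 of 2, Tnfrsf18 at -1.99, and natural killer and cytotoxic genes for 2 of 2 in the deposited ratios, of which Ccl5 had opposite signs in the fits (deposited -0.73, scanner-signal 0.97). So had further genes, among them Ccl19 of the stroma list (-1.04 and 1.01) and Amy2a5 of the exocrine list (-2.15 and 1.44). The B cell list held such a gene too. Of 4 B cell genes, 2 were called lower, among them Ms4a1 at -1.12, and 1 higher, while Cd79a was not well above background in the mice. Of 4 lymph node stroma genes 2 were lower and 1 higher (median -0.59, against 0.48 over 6 genes in the scanner-signal fit), of 2 macrophage and dendritic cell genes 1 was higher, of 3 erythroid genes all 3 were higher, and of 3 adipocyte genes 2 were lower. Genes of exocrine pancreas, a tissue next to this node, were well above background in both channels for all 12 listed, and 8 were called higher and 1 lower. Their deposited median was 0.68 and their scanner-signal median 4.84, which turned to -0.20 with median centring. Their summed processed level was 1220330 and 1745490 in the pool and 1738870 and 2949040 in the mice. From scanner signals, 11 of 12 exocrine genes, 1 of 3 erythroid and 1 of 6 stroma genes were called higher and 1 of 4 adipocyte genes lower. Of all 6654 genes, 4.6% were called higher there and 0.496% lower. None of 2 regulatory T cell, 4 natural killer, 8 B cell or 5 macrophage genes was called there, with 2, 3, 4 and 0 at an unadjusted p under the threshold. Over all 6654 genes, 1352 had such a p. The part of these cells in the members' ratios was not tested.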

How the data were processed

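Agilent Feature Extraction 10.7.3.1 quantified the scans, per the file headers. Its spot signals and local backgrounds are deposited as raw intensity. The processed intensity columns were, per the file headers, background-subtracted and dye-normalized, with surrogate values in place of signals at background. A deposited column gives the log10 ratio, Cy5 to Cy3. The authors' deposited value table holds log2 ratios equal to these log10 values times 3.32, for 5098 probes, of which 26 were controls. How its probes were chosen is not stated, but for 5071 of the other 5072 Cy3 and Cy5 were both well above background on each array. The medians of its columns are 0.08 and 0.03. The files place probes on build mm8.

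The scanner-signal fit used normexp with offset 50, loess (span 0.3) within each array, and the mean over spots of a probe, leaving out 338 and 184 spots with outlier marks. Both fits used limma 3.58.1 in R 4.3.3 (moderated test against 0, 1 residual degree of freedom, two-sided) with Benjamini-Hochberg adjustment over all probes tested. Of 41174 gene probes, 23374 were matched to a current name by accession, 6733 by symbol and 2919 by synonym. Lists were read by each gene's brightest probe. The 10 genes, the 7 pathway and 9 marker lists and the tests were chosen with earlier results of these data known. Some listed genes are not reported here. Named were all members, the ligands, and, apart from those not reported, up to 4 called genes of each other pathway list by size of ratio. Genes that passed no test were named as well where their part in the pathway made them informative, chosen after their values were seen. The labels do not say how the mice relate. The p-values rest on the spread between 2 arrays of 1 mouse each, moderated towards a variance shared across probes. They do not separate array error from animal spread, and they leave out the spread among euglycemic mice. Simulated data with known ratios were recovered by the same loess and test. That simulation had even noise and no background, and it left out the normexp correction and offset, so it does not cover dim Cy5 signals.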

Additional observations from a re-analysis of the deposited data

How the results depend on the processing

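Among the 11 probes tested, those of Il7r, Il2rg, Il2rb, Il4ra and Stat5b and Jak1 probe 2 had a ratio below 0 under every alternative that gave them a value. Not all of these are separate readings. The filters and the intensity trend leave a ratio unchanged, and deposited and processed ratios are the same values where both exist. The single-mouse values are those already averaged. Il7r ranged from -1.58 to -0.26. Called lower among member probes were 0 in the scanner-signal fit, 5 in the deposited ratios, 5 without background correction, 7 with median centring (and 2 higher) and 2 when the variance could follow intensity, Il7r and Il2rg. Over all probes those called lower were, in the same order, 43 of 8815, 931 of 5072, 919 of 8815, 3045 of 8815 (and 2827 higher) and 514 of 8815. Il2rg was tested on array 1 through its pool channel alone. With the processed signals over the same 8815 probes none was called, and 7 of 11 had an unadjusted p under the threshold. With median centring Il21r turned to 0.80, Jak1 probe 1 to -1.65 and Jak3 probes 2 and 1 to 0.26 and 1.03. Median-centred ratios followed signal intensity (Spearman rho of -0.96 across 8815 probes, which are not independent replicates). Without background correction Stat5a turned to -0.015. The cause of these changes was not tested. Each mouse alone kept the direction of all 11 probes except Il21r and Stat5a, which have opposite signs in the 2 mice.

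Over all probes, the scanner-signal fit called 418 higher and 43 lower (90.7% of calls higher), 1274 and 931 in the deposited ratios (57.8%), 0 and 0 with processed signals (3396 at an unadjusted p under the threshold), 93 and 9 with offset 10 (91.2%), 1180 and 919 without background correction (56.2%), 2827 and 3045 with median centring (48.1%), 24 and 0 without a filter (3179 unadjusted), 94 and 0 with a filter on both channels (1159 unadjusted) and 666 and 514 with the intensity trend (56.4%). Processed signals moved the median of all probes from -0.03 to -0.18. Pathway genes called higher and lower numbered 1 and 1, and then 4 and 11 (deposited), 0 and 0 (processed signals), 1 and 0 (offset 10, no filter, and both channels), 4 and 9 (no background correction), 3 and 23 (median centring) and 2 and 6 (intensity trend). T cell markers had a median below 0 under every setting. Dim Cy5 signal limits the rest, since 14 of 21 member probes lacked a measured Cy5 level on at least 1 array. No paired analysis was possible because both mice were set against the same pool.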

Other observations

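A probe described in the array annotation as an Il7r clone but named AK089361 (mm8 chr15:9473695-9473754) was outside the rule for members. It gave 247 and 142 units for the pool and 37.3 and 39.3 for the mice, and was well above background in Cy3 on array 2 alone. The 3 Bcl2 probes stood close to the pool in the processed signals, at -0.11 and 0.08, 0.12 and 0.15, and -0.04 and 0.03. The 3 Ccnd2 probes stood below it, at -1.39 and -2.52, -1.54 and -1.40, and -1.31 and -1.68.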
